A study of Mus musculus with 18 samples.

Results

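The 10 genes described here are the ligands Tgfb1, Tgfb2, Tgfb3 and Mstn, the receptors Tgfbr1 and Tgfbr2, the signal carriers Smad2 and Smad3, and the inhibitors Smad7 and Fst. They were chosen by name, as the rows of a table of unique molecular identifier (UMI) counts whose mouse Ensembl identifier maps to these symbols, and all 10 were found among 50689 features. The RNA came from proliferating satellite cells, the resident stem cells of muscle fibres, taken from the tibialis anterior of C57BL6 mice and grown on matrigel. There were 9 control libraries, labelled CON, of genotype Hoxa10f/f, and 9 libraries labelled scKO, of genotype Pax7-CreERT2/+;Hoxa10f/f, in which a tamoxifen-inducible Cre is expressed from Pax7. Both groups therefore carry the floxed Hoxa10 alleles. The scKO cells were given 4-hydroxytamoxifen at 1 µM for 2 days, and the labels state no such treatment for the controls, so Cre, tamoxifen and loss of Hoxa10 cannot be told apart. Ages of the mice are not given in the labels. The labels do not say whether libraries came from separate mice or cultures, so p-values measure only the spread between these libraries, which may be technical.

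TGF-beta ligands are secreted in a latent form, held by their propeptide and by latent TGF-beta binding proteins in the matrix, and signal once released. An active ligand brings type II and type I receptor kinases together, and the type I receptor phosphorylates Smad2 and Smad3, which join Smad4 and act on gene transcription in the nucleus. Myostatin, the product of Mstn, is a related ligand that limits muscle mass and uses activin type II receptors and the same Smads. In muscle precursor cells this pathway is known to restrain differentiation and fusion.

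The libraries fell into depth classes. Totals were 4346150 to 5986128 counts in 5 deep libraries (control 1 and 2, scKO 6, 7 and 9) and 420197 to 968559 in 13 shallow libraries (7 control and 6 scKO), with the boundary at 2000000 counts. Levels are given as CPM, counts scaled to a total corrected by TMM. A count of 3, taken as the floor of what a library can show, was worth 0.362 to 8.65 CPM. Counts of the most abundant genes ended at a shared ceiling, so such genes take a smaller share of deep libraries, groups are compared within a class, and an order of levels over both classes is a description only. Hoxa10 lay between 14.7 and 64.2 CPM in the shallow controls and between 1.87 and 4.77 CPM in shallow scKO. Those scKO libraries held 1 to 3 counts each, at or below the floor. In the deep libraries Hoxa10 lay at 37.5 and 39.6 CPM in control and at 10.3, 7.08 and 6.79 CPM in scKO 6, 7 and 9, with 48 to 75 counts in scKO. The groups did not overlap in either class. Among the shallow libraries, control 7, 8 and 9 and scKO 1 formed a set of their own on the first and on the second principal component. These held 48.6% and 14.1% of the variance. Fold changes that rest on these 4 libraries are given with and without them. All 10 myoblast markers examined were detected. Their summed level was 8257 to 12352 CPM in shallow controls and 9792 to 11380 CPM in shallow scKO. In the deep libraries it was 2989 to 3713 CPM in control and 3090 to 3403 CPM in scKO. There Myod1 held 3878 to 4027 counts and Chrna1 3875 to 4047 counts, near the shared ceiling. The deep sums are thus partly set by that ceiling and cannot compare myoblast content between the groups.

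In the deep libraries 4 of the 10 genes rose in scKO: Smad3, the ligand Tgfb3, the type I receptor gene Tgfbr1 and Fst, which encodes the myostatin and activin antagonist follistatin. Their fold changes were 1.53 to 1.95, with 2 control and 3 scKO libraries. None of the 10 fell there. In the shallow libraries none of the 7 genes tested passed the test, and in the model of all 18 libraries with the depth class as a covariate none of 9 did. The background was 7.31% of 13136 genes called higher and 7.03% called lower in the deep libraries, 0.0434% of 6906 genes called in the shallow libraries and 0.679% of 7662 genes called in the depth class model (edgeR quasi-likelihood test, Benjamini-Hochberg adjusted p under 0.05). These comparisons share libraries and are not independent of each other.

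In the controls, levels were compared between genes per kb of exon. Smad3 led in the shallow controls with 22.4 ± 10.2 CPM per kb (SD, n = 7), followed by Fst with 14.4 ± 4.43, Tgfb3 with 13.6 ± 3.72 and Tgfb2 with 12.1 ± 5.88 CPM per kb. Smad7 stood at 9.71 ± 8.36, Tgfbr1 at 6.96 ± 1.24, Smad2 at 4.64 ± 1.41 and Mstn at 4.58 ± 1.54 CPM per kb. The lowest were Tgfb1 with 2.52 ± 1.22 and Tgfbr2 with 1.56 ± 0.665 CPM per kb. Each gene's range overlapped that of the next in this order, and Smad3 exceeded Fst in 6 of 7 libraries. The means include control 7, 8 and 9, where Smad3 lay at 37.0, 35.1 and 25.0 CPM per kb. In the other shallow controls it lay between 11.7 and 17.1 CPM per kb. Fst lay at 19.8, 18.7 and 18.2 CPM per kb in control 7, 8 and 9, against 8.77 to 12.8 in the others. Smad7 reached 28.2 CPM per kb in control 8 and at most 8.92 in any other shallow control. The order of means is given with these libraries only. In the deep controls (n = 2) Fst led with 14.4 CPM per kb, followed by Tgfb3 with 13.0, Smad3 with 9.98 and Tgfb2 with 7.96 CPM per kb, and Tgfbr2 was again lowest with 1.67 CPM per kb. Smad3 thus held the first place in the shallow controls and the third in the deep ones. The library kit is not stated, and if reads came from 1 end of each transcript the scaling by length would favour short transcripts.

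**Figure D1:**
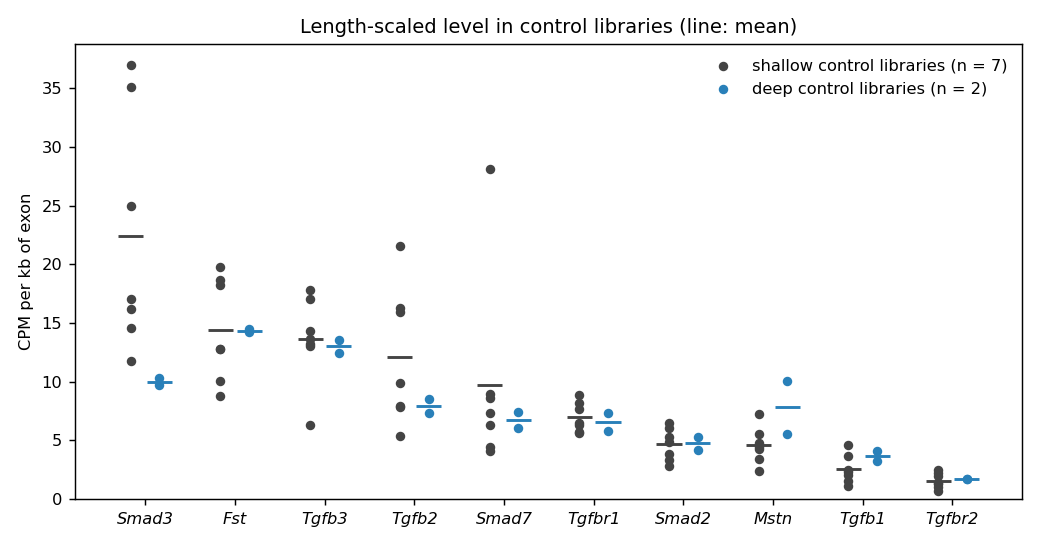
Level per kb of exon (CPM per kb, y axis) of the 10 genes (x axis, in the order of the shallow means) in each control library, with lines at the means. Smad3 spreads from 11.7 to 37.0 CPM per kb over the 7 shallow controls and lies near 10 in the deep ones, while Tgfbr2 stays below 2.5 in every control library.

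Identifiers and positions follow the GRCm38 build. On the plus strand are Tgfb1 (ENSMUSG00000002603; chromosome 7, 25687002 to 25705077), Mstn (ENSMUSG00000026100; chromosome 1, 53061640 to 53068079) and Tgfbr1 (ENSMUSG00000007613; chromosome 4, 47353222 to 47414931). Smad2 (ENSMUSG00000024563; chromosome 18, 76241580 to 76310963) and Smad7 (ENSMUSG00000025880; chromosome 18, 75367529 to 75395935) are on the plus strand as well. On the minus strand are Tgfb2 (ENSMUSG00000039239; chromosome 1, 186622792 to 186705989), Tgfb3 (ENSMUSG00000021253; chromosome 12, 86056745 to 86079041) and Tgfbr2 (ENSMUSG00000032440; chromosome 9, 116084293 to 116175360). Smad3 (ENSMUSG00000032402; chromosome 9, 63646767 to 63757994) and Fst (ENSMUSG00000021765; chromosome 13, 114452290 to 114458951) share that strand. Exons of Tgfb2, Tgfb3 and Fst overlap predicted genes on the other strand, and the labels do not say whether counting used strand, so reads of such pairs cannot be told apart. The predicted gene Gm29491 at Tgfb2 had 0 counts and Gm37804 at Tgfb3 had 7 counts over all libraries. The other overlapping genes, Gm48008 at Tgfb3 and Gm47040 at Fst, had no feature paired with their symbol, so their counts are not known here.

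Tgfb3, a secreted TGF-beta isoform, was the ligand that rose in the deep libraries. Its level was 45.9 CPM in control 1 and 42.1 CPM in control 2, against 80.8, 70.6 and 76.8 CPM in scKO 6, 7 and 9. The deep scKO values were the highest of all 18 libraries. The log2 fold change of Tgfb3 was 0.78 (SE 0.11; edgeR adjusted p = 0.000672), a fold of 1.71. In the shallow libraries the lowest, median and highest levels were 21.5, 46.1 and 60.2 CPM in control and 36.0, 52.8 and 67.4 CPM in scKO. Those ranges overlapped, and the log2 fold change of Tgfb3 was 0.19 (SE 0.22; edgeR adjusted p = 0.886). Leaving out 1 shallow library at a time gave 0.063 at the lowest, without control 5, the lowest shallow control. The highest was 0.29, without scKO 1. The depth class model gave 0.43 (SE 0.17; edgeR adjusted p = 0.263), with a 95% interval of 0.09 to 0.77.

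Mstn, myostatin, lay between 1.50 and 34.3 CPM. Its deep level was 15.1 CPM in control 1, 27.1 CPM in control 2 and 34.3, 31.2 and 32.7 CPM in scKO 6, 7 and 9. All 3 deep scKO libraries exceeded both deep controls, which differed from each other by more than control 2 differed from any scKO library. Mstn did not pass in the deep libraries (log2 fold change 0.59, SE 0.20; edgeR adjusted p = 0.0809). Its call depends on the control libraries: without control 2 the log2 fold change was 1.10 (edgeR adjusted p = 0.00150) and without control 1 it was 0.25 (edgeR adjusted p = 0.350), where the lone control is assumed to vary like the scKO libraries. Without the filter on low counts Mstn passed (log2 fold change 0.59; edgeR adjusted p = 0.00173). Mstn counts were 4 to 13 per shallow control and 1 to 15 per shallow scKO library, or 6.51 to 19.6 and 1.50 to 28.1 CPM, and Mstn failed the count filter there. Without that filter the shallow value of Mstn was 0.09 on the log2 scale (SE 0.35; edgeR adjusted p = 0.977).

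Tgfb2, another TGF-beta isoform, had a higher level per kb of exon than Tgfb1 in each of the 18 libraries. Its level was 42.7 and 49.6 CPM in the deep controls and 49.1, 55.0 and 59.4 CPM in the deep scKO libraries, which overlapped (log2 fold change 0.22, SE 0.12; edgeR adjusted p = 0.246). In the shallow controls it ran from 31.2 over a median of 57.0 to 125 CPM, and in shallow scKO from 40.2 over 57.7 to 88.4 CPM. Its interval in the depth class model, -0.48 to 0.39 on the log2 scale, spans changes in both directions. Tgfb1 held only 3 to 11 counts in any shallow library and failed the count filter of the shallow fit and of the depth class model. Without the filter its log2 fold change was -0.20 in the shallow libraries (SE 0.38; edgeR adjusted p = 0.902) and -0.22 in the depth class model (SE 0.21; edgeR adjusted p = 0.732). In the deep libraries it stood at 20.8 and 16.3 CPM in control and 13.4, 17.6 and 17.0 CPM in scKO, and the groups overlapped (log2 fold change -0.21, SE 0.17; edgeR adjusted p = 0.458).

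Tgfbr1, the type I receptor kinase that phosphorylates Smad2 and Smad3, rose in the deep libraries. Its level was 38.0 CPM in control 1 and 47.9 CPM in control 2, against 63.6, 68.6 and 68.7 CPM in scKO 6, 7 and 9. The groups did not overlap, and the deep scKO libraries again held the highest values of all 18. The log2 fold change of Tgfbr1 was 0.62 (SE 0.12; edgeR adjusted p = 0.00412), a fold of 1.53. Shallow levels ran from 37.0 over a median of 42.3 to 57.7 CPM in control and from 25.5 over 53.5 to 58.0 CPM in scKO (log2 fold change 0.11, SE 0.20; edgeR adjusted p = 0.930). Without scKO 1, the lowest, the value was 0.25, and without scKO 3, the highest shallow scKO library, it was 0.064. The depth class model gave 0.32 (SE 0.15; edgeR adjusted p = 0.405).

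Tgfbr2, the type II receptor that binds TGF-beta first, was the lowest of the 10 genes per kb in the controls of both classes. Its deep level was 13.6 and 13.7 CPM in control and 17.0, 15.2 and 16.5 CPM in scKO. The scKO libraries lay above both controls for Tgfbr2. It did not pass (log2 fold change 0.23, SE 0.16; edgeR adjusted p = 0.367). Tgfbr2 counts were 3 to 14 per shallow control and 3 to 10 per shallow scKO library, which failed the count filter. Without that filter the shallow log2 fold change of Tgfbr2 was -0.30 (SE 0.37; edgeR adjusted p = 0.804).

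The region before the gene start is shown for Smad3 and Tgfbr1, which rose in the deep libraries, and for Mstn, the ligand named for muscle, which did not pass. Sequences are the 250 bases before the start in RefSeq (GRCm38.p6), read 5' to 3' on the gene's strand: chr9:63757995-63758244 on the minus strand for Smad3, chr4:47352972-47353221 on the plus strand for Tgfbr1 and chr1:53061390-53061639 on the plus strand for Mstn. Capitals mark matches to 4 motifs searched on both strands. These are CAGAC, the Smad box, TATAAA, the TATA box, GGGCGG, the GC box, and TTTATG, a core of the kind bound by posterior Hox proteins.
Smad3: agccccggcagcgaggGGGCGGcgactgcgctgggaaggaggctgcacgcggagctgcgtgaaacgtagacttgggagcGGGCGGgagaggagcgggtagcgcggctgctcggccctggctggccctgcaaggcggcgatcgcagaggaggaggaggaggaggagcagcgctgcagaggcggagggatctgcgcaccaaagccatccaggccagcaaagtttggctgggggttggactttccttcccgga
Tgfbr1: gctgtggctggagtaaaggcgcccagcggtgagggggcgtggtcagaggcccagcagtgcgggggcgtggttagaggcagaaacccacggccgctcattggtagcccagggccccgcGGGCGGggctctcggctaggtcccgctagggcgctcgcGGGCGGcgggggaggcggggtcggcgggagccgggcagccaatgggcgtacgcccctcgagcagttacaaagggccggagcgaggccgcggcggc
Mstn: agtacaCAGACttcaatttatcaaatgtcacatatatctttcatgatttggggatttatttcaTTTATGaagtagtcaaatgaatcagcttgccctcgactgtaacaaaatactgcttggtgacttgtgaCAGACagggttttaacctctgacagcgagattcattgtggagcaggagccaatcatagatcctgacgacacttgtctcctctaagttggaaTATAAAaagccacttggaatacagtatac
The Smad3 region holds 69.2% G and C with GC boxes starting 234 and 171 bases before the gene start. The Tgfbr1 region holds 74.8% G and C with GC boxes at 133 and 95 bases. The Mstn region differs from both: it holds 38.4% G and C, with Smad boxes at 244 and 120 bases, a TTTATG at 187 bases and a TATA box at 29 bases. None of the capitals overlap each other. Of 32851 windows of this length before gene starts, 42.2% hold CAGAC, 32.7% GGGCGG, 12.4% TATAAA and 10.8% TTTATG, so each of these matches is common. A match describes the letters only.

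Smad3, a receptor-activated Smad that binds DNA, had the largest change of the 10 genes in the deep libraries. Its level was 57.0 CPM in control 1 and 53.7 CPM in control 2, against 112, 112 and 101 CPM in scKO 6, 7 and 9. The counts behind these were 318 and 445 in control and 822, 890 and 716 in scKO. The groups did not overlap, and the deep controls were the lowest of all 18 libraries. The log2 fold change of Smad3 was 0.96 (SE 0.10; edgeR adjusted p = 0.000158), a fold of 1.95. The shallow libraries gave another picture: Smad3 ran from 65.1 over a median of 94.7 to 205 CPM in control and from 75.7 over 109 to 163 CPM in scKO. Its log2 fold change there was -0.14 (SE 0.27; edgeR adjusted p = 0.931). The 3 highest shallow controls were control 7, 8 and 9, at 205, 195 and 138 CPM, and the other 4 shallow controls lay between 65.1 and 94.7 CPM.

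Smad2, the other receptor-activated Smad of this branch, did not differ between the groups beyond their spread in either class. Its level was 36.6 and 46.7 CPM in the deep controls and 37.2, 43.8 and 42.8 CPM in the deep scKO libraries. These overlapped, and the log2 fold change of Smad2 was -0.04 (SE 0.13; edgeR adjusted p = 0.891), with a 95% interval of -0.32 to 0.25. In the shallow libraries Smad2 ran from 24.3 over a median of 42.3 to 57.0 CPM in control and from 25.7 over 35.0 to 40.5 CPM in scKO (log2 fold change -0.23, SE 0.22; edgeR adjusted p = 0.865). The deep interval of Smad2 lies below that of Smad3, 0.75 to 1.17, but the difference between these genes was not tested.

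Fst encodes follistatin, a secreted protein that binds myostatin and activins and keeps them from their receptors. Its level was 66.3 CPM in control 1 and 65.5 CPM in control 2, against 93.0, 112 and 117 CPM in scKO 6, 7 and 9. The deep scKO libraries were the highest of all 18, and the groups did not overlap. The log2 fold change of Fst was 0.69 (SE 0.11; edgeR adjusted p = 0.00168), a fold of 1.61. Shallow levels ran from 40.2 over a median of 58.8 to 90.9 CPM in control and from 36.8 over 62.1 to 74.8 CPM in scKO. They overlapped (log2 fold change -0.13, SE 0.22; edgeR adjusted p = 0.919). The highest 3 shallow controls were again control 7, 8 and 9, at 90.9, 85.7 and 83.6 CPM.

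Smad7, the inhibitory Smad that blocks the type I receptor and is itself induced by TGF-beta, did not pass in any comparison. Its level was 27.2 and 33.4 CPM in the deep controls and 21.1, 31.3 and 33.4 CPM in the deep scKO libraries, which overlapped (log2 fold change -0.11, SE 0.19; edgeR adjusted p = 0.759). In the shallow controls it ran from 18.5 over a median of 33.3 to 127 CPM, and in shallow scKO from 15.6 over 25.9 to 34.5 CPM. The highest value belonged to control 8 alone, with 55 counts. The shallow log2 fold change of Smad7 was -0.68 (SE 0.41; edgeR adjusted p = 0.822), and without control 8 it was -0.16.

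**Figure D2:**
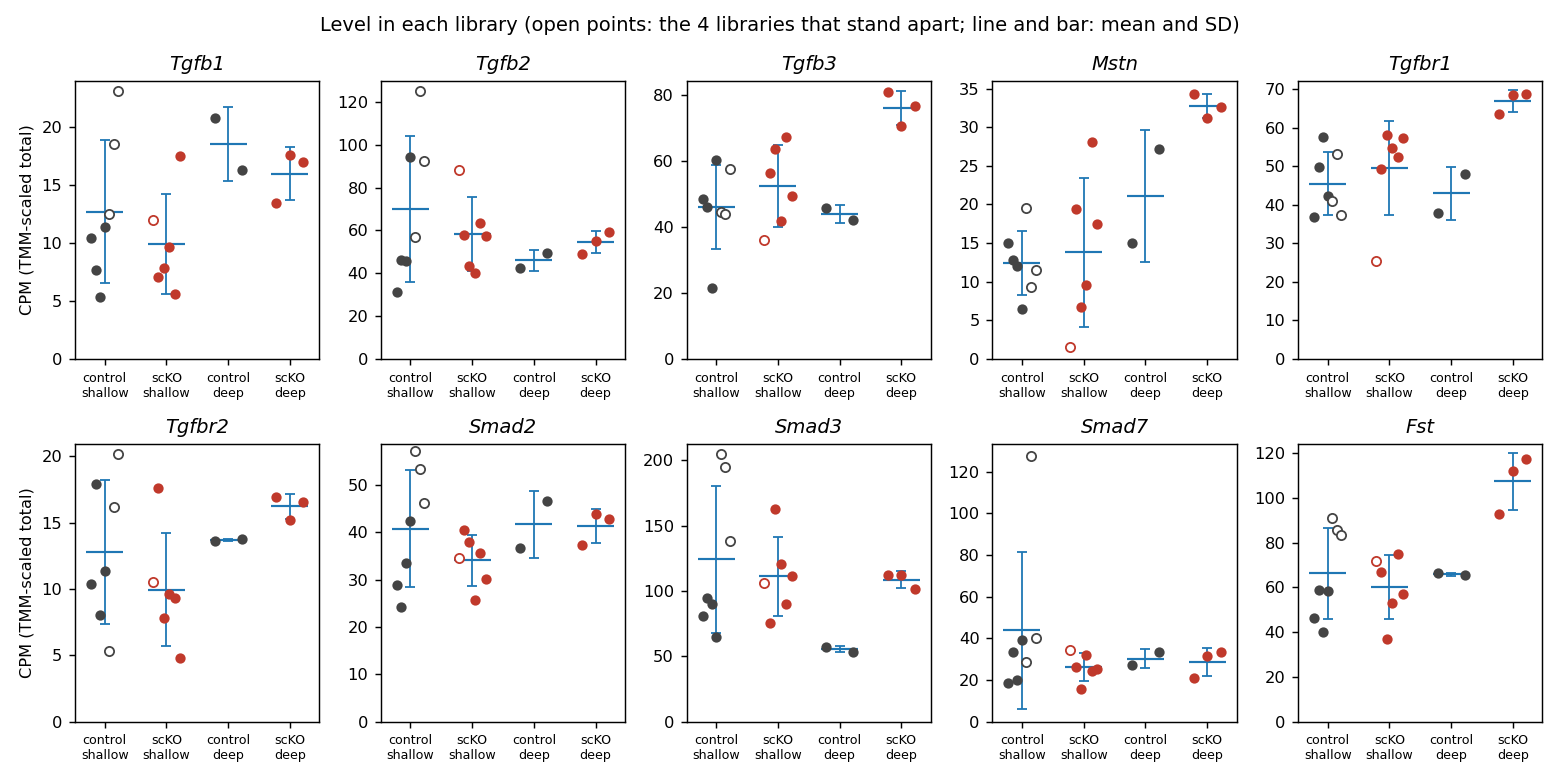
Level (CPM on TMM-scaled totals, y axes from 0) of each gene in each library, by group and depth class, with mean and SD; open points are control 7, 8, 9 and scKO 1. In the deep class the 3 scKO points lie above both controls for Tgfb3, Mstn, Tgfbr1, Tgfbr2, Smad3 and Fst, and in the shallow class the groups overlap for every gene.

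Across the 10 genes, the deep fold changes were 7 positive and 3 negative, with a median of 0.41 on the log2 scale, against -0.00 over all 13136 genes tested. The 3 negative ones were Tgfb1, Smad2 and Smad7. All 3 deep scKO libraries lay above both deep controls for 6 of the 10 genes and below them for none, against 24.3% and 21% of all genes. DESeq2 and limma-voom each called 4 of the 10 in the deep libraries as well. Leaving out any deep library in turn kept Smad3 between 0.91 and 1.01, Tgfb3 between 0.71 and 0.83, Fst between 0.62 and 0.79 and Tgfbr1 between 0.46 and 0.80 on the log2 scale, with highest edgeR adjusted p of 0.00191, 0.00398, 0.0123 and 0.0368. In the shallow libraries 2 fold changes were positive and 5 negative, with a median of -0.14, against -0.02 over 6906 genes. The groups overlapped for all 7, where 0.217% of all genes had every scKO library above and 0.101% below the controls. None of the 7 reached an unadjusted p of 0.05 there, and DESeq2 and limma-voom called 0 of them. The depth class model gave 6 positive and 3 negative values with a median of 0.18, against -0.01 over 7662 genes. Tgfb3 and Tgfbr1 reached an unadjusted p under 0.05 in it (0.0161 and 0.0458), as 910 of all genes did, and edgeR, DESeq2 and limma-voom called 0 members.

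A call in the deep libraries and none in the shallow ones does not show that the change differs between the classes, so the difference itself was tested. The deep change exceeded the shallow change for each of the 9 genes tested, and 3883 of 7662 genes had a positive difference. Tgfb1 failed the count filter, and without that filter its difference was -0.037 on the log2 scale (SE 0.43). The differences were 1.09 for Smad3 (SE 0.42; edgeR adjusted p = 0.639), 0.82 for Fst (SE 0.34; edgeR adjusted p = 0.717), 0.58 for Tgfb3 (SE 0.32; edgeR adjusted p = 0.878) and 0.52 for Tgfbr1 (SE 0.29; edgeR adjusted p = 0.895). No gene was called in this test, 0% of 7662. Smad3 and Fst reached unadjusted p of 0.0167 and 0.0225, as 473 of all genes did below 0.05.

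**Figure D3:**
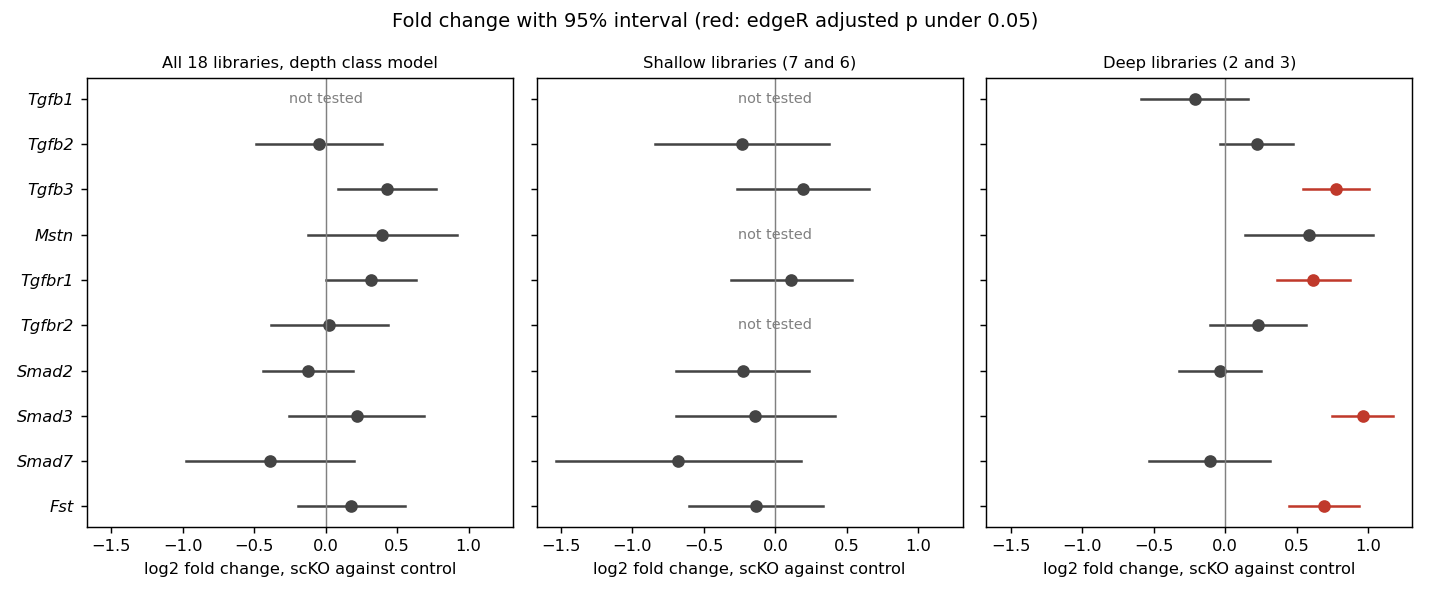
Log2 fold change of scKO against control (x axes) with its 95% interval for each gene in the depth class model, the shallow libraries and the deep libraries; red marks an edgeR adjusted p under 0.05. Smad3, Tgfb3, Fst and Tgfbr1 are marked in the deep libraries, with intervals from 0.36 at the lowest to 1.17 at the highest, and no gene is marked in the other panels.

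Control 7, 8 and 9 held the 3 highest shallow control levels of Smad3 and of Fst. scKO 1 held the lowest shallow scKO level of Tgfb3 and of Tgfbr1, at 36.0 and 25.5 CPM. Without control 7, 8 and 9 and scKO 1, the libraries that stand apart, the depth class model called Smad3, Tgfb3 and Tgfbr1 higher. Leaving out the highest controls or the lowest scKO library of a gene raises its fold change by itself, and the set was chosen with earlier results known. The model also keeps the 5 deep libraries, so these calls are not separate from the deep ones. The log2 fold change was 0.69 for Smad3 (SE 0.14; edgeR adjusted p = 0.00436), 0.60 for Tgfb3 (SE 0.15; edgeR adjusted p = 0.0160) and 0.45 for Tgfbr1 (SE 0.12; edgeR adjusted p = 0.0242). Of all genes, 3.2% were called higher and 4.09% lower in that model. Fst (0.45, SE 0.14; edgeR adjusted p = 0.0544) and Mstn (0.54, SE 0.20; edgeR adjusted p = 0.0967) did not pass. Within the shallow libraries alone the log2 fold change of Smad3 moved from -0.14 to 0.45 (SE 0.20; edgeR adjusted p = 0.550), and that of Fst from -0.13 to 0.16 (SE 0.22; edgeR adjusted p = 0.883). No member was called there, with 0% of 7077 genes called, and Smad3 alone reached an unadjusted p under 0.05 (0.0375). The difference between the classes fell to 0.51 for Smad3 (SE 0.26; edgeR adjusted p = 0.690) and 0.55 for Fst (SE 0.27; edgeR adjusted p = 0.654).

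**Figure D4:**
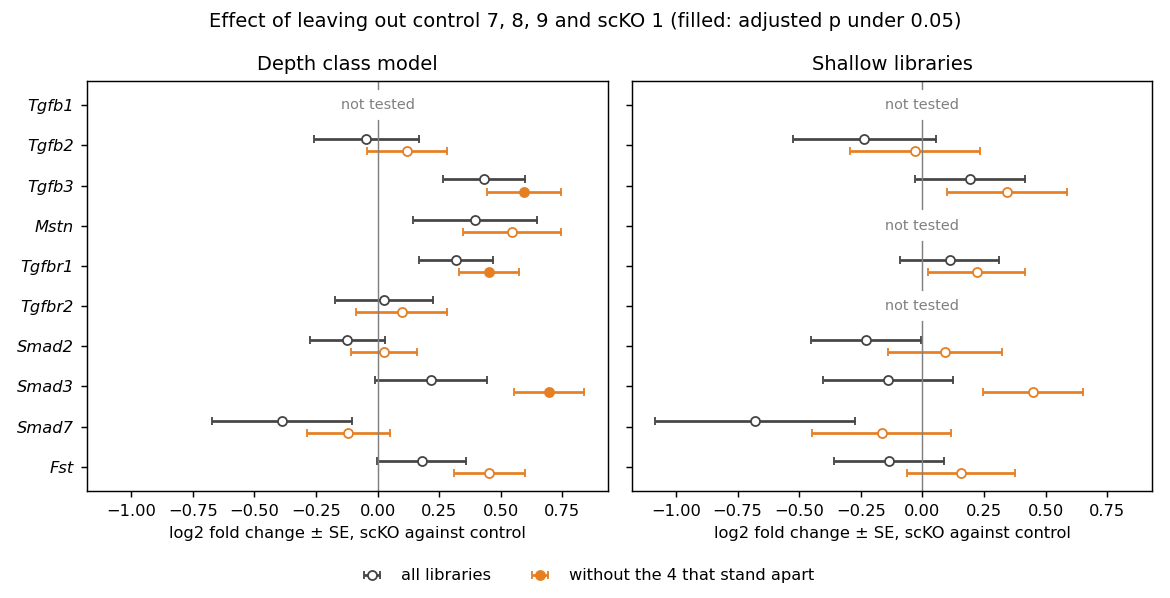
Log2 fold change of scKO against control ± SE (x axes) in the depth class model and in the shallow libraries, with all libraries (grey) and without control 7, 8, 9 and scKO 1 (orange); filled points have an edgeR adjusted p under 0.05, and genes marked as not tested failed the count filter with all libraries. Smad3 moves most, from 0.22 to 0.69 in the depth class model and from -0.14 to 0.45 in the shallow libraries.

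The other genes of the pathway, 89 listed by role, showed no call in the depth class model: edgeR, DESeq2 and limma-voom called 0 of the 48 tested. There were 21 positive and 27 negative values with a median of -0.04. Those at an unadjusted p under 0.05 were 5, or 10.4% of the 48, near the 11.9% of all genes. All 5 were negative: Fbn1 (-0.57; edgeR adjusted p = 0.239), the fibrillin that anchors latent TGF-beta, Crebbp (-0.47; edgeR adjusted p = 0.225), a Smad coactivator, Ltbp1 (-0.43; edgeR adjusted p = 0.361), a latent TGF-beta binding protein, the transcription factor Sp1 (-0.32; edgeR adjusted p = 0.351) and Fstl1 (-0.26; edgeR adjusted p = 0.364), a follistatin-like secreted protein. The ligands Gdf11, Inha and Inhbb lay at 0.23, 0.13 and -0.06 and the activin receptor Acvr2a at 0.21. Among the other inhibitors Fstl3 lay at 0.26 and Nedd4l at 0.19. The matrix protease Mmp14 lay at -0.41, the coactivator Ep300 at -0.30, and the target genes Col3a1, Lox and Timp1 at -0.29, -0.35 and 0.29. None of these passed.

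In the deep libraries 9 of 80 tested pathway genes were called, 3 higher and 6 lower, against 14.3% of all genes called, with 26 positive and 54 negative values and a median of -0.10. Of the 16 tested genes listed under latency and activation, 4 fell and 1 rose. Mmp14, a membrane protease that can free latent TGF-beta, stood at 45.9 and 39.3 CPM in control and 25.3, 21.6 and 23.0 CPM in scKO (log2 fold change -0.88, SE 0.13; edgeR adjusted p = 0.000909). Ltbp2 (-1.11; edgeR adjusted p = 0.0123), Fbn1 (-0.67; edgeR adjusted p = 0.0364) and Thbs1 (-0.38; edgeR adjusted p = 0.0441), the activator thrombospondin 1, fell as well. Itgb6, a chain of an integrin that activates latent TGF-beta, rose from 28.9 and 36.2 CPM to 44.9, 56.5 and 50.5 CPM (0.61; edgeR adjusted p = 0.00999). The groups did not overlap for Mmp14 or Itgb6. Mmp14 and Fn1 were called in each of the 5 fits that left out 1 deep library, while the number of called pathway genes in them ran from 0 higher and 2 lower without scKO 7 to 1 higher and 13 lower without control 2. Without control 1 there were 4 higher and 2 lower, and without scKO 6 there were 2 higher and 3 lower. Without the filter on low counts 7 were higher and 8 lower.

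Of the 27 target genes, 21 had negative values in the deep libraries, against 6595 of all 13136 genes. Calls went both ways, with 2 higher and 1 lower, where 14.3% of all genes were called. An unadjusted edgeR p under 0.05 was reached by 44.4% of the targets and 29.4% of all genes. The lean of the list as a whole was not tested. Fn1, fibronectin, fell from 275 and 200.3 CPM to 162, 138 and 166 CPM (log2 fold change -0.63; edgeR adjusted p = 0.0101). Postn, periostin, stood at 3.58 and 3.26 CPM in control and 6.84, 16.8 and 18.8 CPM in scKO (2.04; edgeR adjusted p = 0.0349), and Tgm2, transglutaminase 2, rose by 0.86 on the log2 scale (edgeR adjusted p = 0.0384). Pmepa1, a TGF-beta-induced inhibitor of the pathway, fell by 0.42 on the log2 scale (edgeR adjusted p = 0.0309). The target Ctgf stood at -0.06 (edgeR adjusted p = 0.934). DESeq2 did not call Fbn1 or Tgm2, and limma-voom did not call Thbs1. Of the 5 fits that left out 1 deep library, Itgb6 and Ltbp2 were called in 3, Fbn1, Pmepa1 and Tgm2 in 2, and Postn and Thbs1 in 1.

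Of the 9 pathway genes called in the deep libraries, 6 were also tested in the shallow ones, and 5 of these had the opposite sign there. Shallow log2 fold changes were 0.58 for Fn1, -0.55 for Itgb6, 0.35 for Thbs1, 0.16 for Pmepa1 and 0.12 for Mmp14, while Fbn1 kept its sign at -0.49. None passed in the shallow libraries (edgeR adjusted p from 0.721 for Fn1 to 0.949 for Mmp14). The difference between the classes was -1.21 for Fn1, 1.17 for Itgb6, -0.98 for Mmp14 and -0.73 for Thbs1, with unadjusted p of 0.00171, 0.00142, 0.0186 and 0.0300. None of these differences passed either (edgeR adjusted p = 0.409, 0.388, 0.666 and 0.769). Of the 48 pathway genes tested for the difference, 4 had an unadjusted edgeR p under 0.05, or 8.33%, against 6.17% of all genes. The genes named here were picked by their deep calls, which by itself favours large differences and opposite signs. The share of opposite signs among all genes called in the deep libraries was not computed. For Pmepa1 the difference was -0.59 (edgeR adjusted p = 0.883).

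**Figure D5:**
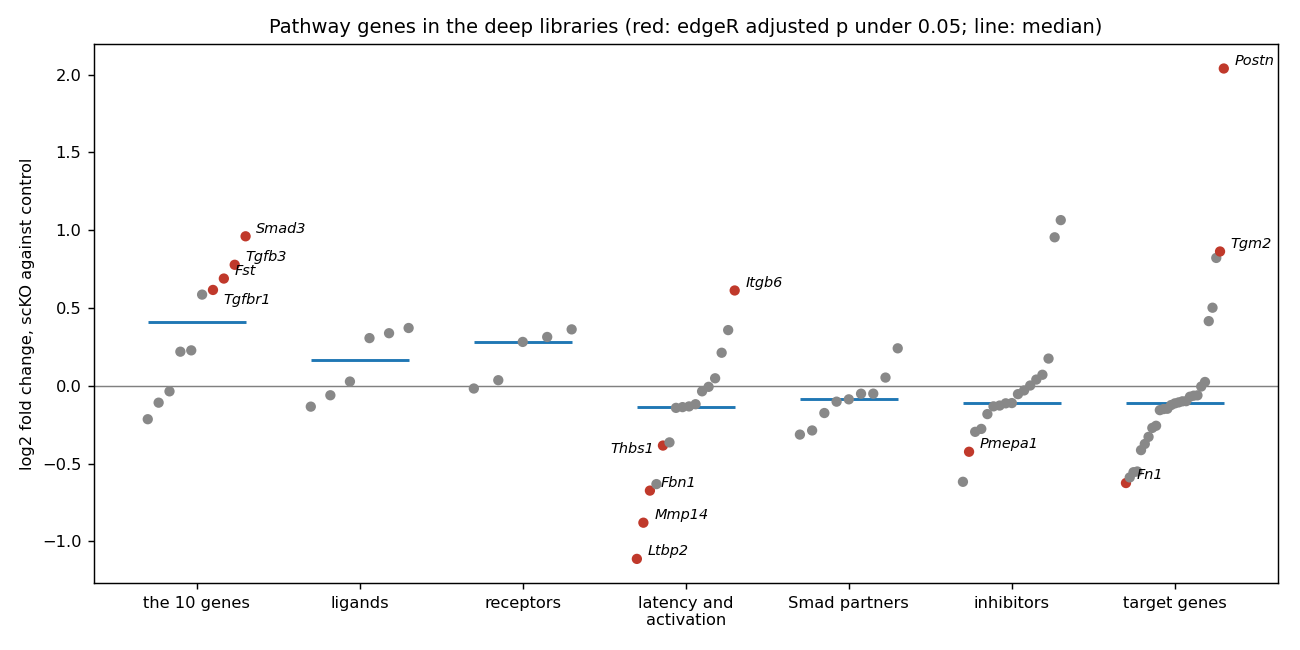
Log2 fold change of scKO against control (y axis) in the deep libraries for the 10 genes and the other tested pathway genes by role; red and named points have an edgeR adjusted p under 0.05, and lines are medians. The median of the 10 genes lies at 0.41 and that of the target genes at -0.11, with Postn highest at 2.04 and Ltbp2 lowest at -1.11.

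Markers of other cell types were examined beside the deep changes, since TGF-beta and matrix genes are also expressed by connective tissue and mural cells. Whether the myoblasts themselves express some of the listed genes was not tested. The sums therefore give levels of the lists and do not measure how many cells of another type were present. The summed level of 8 fibro-adipogenic markers was 48.8 to 56.1 CPM in the deep controls and 60.7 to 73.2 CPM in deep scKO, with no overlap. Pdgfra, a defining marker of that list, stood at 9.68 and 5.67 CPM in the deep controls and 7.93, 7.96 and 8.06 CPM in deep scKO, which overlapped. Col15a1, another of the 8, stood at 10.04 and 9.41 CPM in the deep controls and 16.5, 17.6 and 20.1 CPM in deep scKO, with no overlap. Of these 8, Clec3b had 0 counts throughout, and Dpt and Lum lay between 0 and 0.821 CPM in the deep libraries. The remaining markers of the 8 also enter the sum. Their single values are not given here, so whether they share its direction is not shown. In the shallow libraries that sum was 68.4 to 141 CPM in control and 49.5 to 98.5 CPM in scKO, which overlapped. The sum of 6 smooth muscle and pericyte markers was 264 to 303.0 CPM in the deep controls and 303.2 to 319 CPM in deep scKO, without overlap. The nearest values of the groups, 302.95 and 303.21 CPM, almost met. In the shallow libraries that sum was 275 to 375 CPM in control and 336 to 437 CPM in scKO. Of all single genes tested in the deep libraries, 24.3% had every scKO library above both controls, so such a lack of overlap is common there. Endothelial sums overlapped in the deep class, at 9.17 to 31.2 CPM in control and 11.4 to 16.8 CPM in scKO, as did Schwann cell sums, at 349 to 464 and 386 to 440 CPM, and leukocyte sums, at 3.05 to 6.63 and 4.80 to 13.95 CPM. The sum of 5 tendon markers was 249 to 298 CPM in the deep controls and 293 to 323 CPM in deep scKO, which overlapped. The part of these marker levels in the deep changes of Tgfb3, Tgfbr1, Smad3 and Fst was not tested, and in bulk RNA fewer cells of a type and less RNA per cell cannot be told apart.

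Over the 18 libraries, after removing the mean of each group within each depth class, the genes whose log2 CPM followed Smad3 most closely of 7444 compared included Srrm4os (Pearson r = 0.89) and Myom2 (r = 0.89). For Fst they were Tiam2 (r = 0.92), Cxcr4 (r = 0.89) and Jam2 (r = 0.87), and for Tgfb2 they included Phip (r = 0.90) and Hyal2 (r = 0.87). These are the highest of many values over the same libraries and include the spread between the 4 libraries that stand apart and the rest, so they are descriptions of these libraries.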

How the data were processed

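RNA of cultured satellite cells was sequenced in 9 control and 9 scKO libraries. The authors deposited raw counts per gene, of UMIs per the name of the deposited table, and the submitters' processing notes list HTSeq and HISAT2 without versions. The build listed there is Rnor_6.0, of the rat, although the identifiers are those of mouse Ensembl genes. They were used as deposited, and 50376 of 50689 features were paired with a symbol. Kit, annotation, strand use and UMI length are not given in the sources used here. Positions and exon lengths came from GENCODE M21.

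Genes were filtered with filterByExpr by group, scaled by TMM and compared with the robust quasi-likelihood test of edgeR 4.0.16 in R 4.3.3, with Benjamini-Hochberg adjustment over all genes tested and a threshold of 0.05. Fits covered all libraries with the depth class, each class alone, and the interaction. Log2 CPM for correlations used a prior count of 2. Alternatives were the group alone, the log2 total, a replicate block, other scalings, DESeq2 1.42.0, limma-voom (limma 3.58.1), other filters, correction for collisions among UMIs, and leaving out libraries. Scripts were tested on simulated data. The 10 genes, the pathway and marker lists, the depth boundary and the 4 libraries left out were chosen with earlier results of these data known. Pathway genes named are those called, and per role up to 3 with the smallest unadjusted p in the depth class model; those named for the deep libraries were chosen after their values were seen. A few genes that these rules or the correlations would name are not reported here. No libraries of a group and class agreed within sampling noise (lowest chi-square per degree of freedom 1.60). Counting error and further spread between libraries both limit precision in the shallow libraries, and the floor of 3 counts covers counting error only.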

Additional observations from a re-analysis of the deposited data

Results flagged for a closer look

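Within each group of 6 or 7 shallow libraries, the highest and the lowest library of each gene was compared with the next, and 3 values lay far from the rest. Over the 20 groups examined, chance alone gives such a value in about 1 of 20. Smad7 stood at 127.4 CPM (55 counts) in control 8, where the next highest of the 7 shallow controls had 40.3 CPM, and without control 8 the shallow log2 fold change moved from -0.68 to -0.16. Tgfb3 stood at 21.5 CPM (16 counts) in control 5, where the next lowest shallow control had 44.0 CPM, and without control 5 the shallow log2 fold change moved from 0.19 to 0.063. Tgfbr1 stood at 25.5 CPM (17 counts) in scKO 1, where the next lowest of the 6 shallow scKO libraries had 49.3 CPM, and without scKO 1 the shallow log2 fold change moved from 0.11 to 0.25. Control 8 and scKO 1 are among the 4 libraries that stand apart, and control 5 is not.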

How the results depend on the processing

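Of the counts of called genes, 94 values under alternatives stayed within 1.5 times the reported count and 7 moved. The 9 pathway genes called in the deep libraries became 15 without the filter on low counts and 2 to 14 when 1 library was left out (14 without control 2, 5 without scKO 6 and 2 without scKO 7), in alternatives chosen after seeing the data. Without the 4 libraries that stand apart the depth class model called 3 of the 10 genes instead of 0, and 1 other pathway gene instead of 0 (Mmp14, -0.62; edgeR adjusted p = 0.0350). Without the filter on low counts the depth class model called 3 other pathway genes (Postn at 1.13, Itga5 at -0.83 and Ltbp2 at -0.97). Of the single log2 fold changes, 498 values under alternatives kept their direction and side of the threshold, 5 newly passed it (Smad3, Tgfb3 and Tgfbr1 without those 4 libraries, and Mstn in the deep libraries without the count filter and without control 2) and 26 changed sign, none of them called. In the depth class model Tgfb2 was 0.065 with limma-voom, and without the 4 libraries Tgfb2 was 0.12 and Smad2 0.026. Without them, the shallow values of Smad2, Smad3 and Fst were 0.092, 0.45 and 0.16, and the difference between classes for Smad2 was -0.12, an alternative chosen after seeing the data. Leaving out 1 library at a time gave -0.13 to 0.087 for Tgfb2 and -0.060 to 0.091 for Tgfbr2 in the depth class model, -0.28 to 0.045 for Smad3 in the shallow libraries, and -0.20 to 0.16 for Smad2 and -0.25 to 0.071 for Smad7 in the deep libraries. The cause of these changes was not tested.

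With the replicate number as a block the depth class model called 0 of the 10 genes, 0 other pathway genes and 14 of all genes against 52, and Tgfbr2 was -0.055. Libraries with the same number correlated between -0.07 and 0.25, and 2 of 9 controls correlated best with the scKO library of their own number, so the numbers were not taken as pairs. The deep comparison rests on 2 control and 3 scKO libraries. Tgfb1, Mstn and Tgfbr2, with 15 or fewer counts in each shallow library, were compared there only without the count filter, and none passed.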
